A study of Mus musculus with 36 samples.

Results

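Immunoglobulin variable (V) segments are the exons that code for most of the antigen-binding domain of an antibody chain. Described here are the V segments with at least 200 raw counts summed over the 36 lung libraries, among the 350 genes named Ighv (heavy chain), Igkv (kappa light chain) or Iglv (lambda light chain) in the deposited tables. They are 48 of 185 Ighv, 67 of 162 Igkv and 3 of 3 Iglv genes, out of 46078 genes counted, and are called members. The choice used the summed counts, so the rank of the segments by total is a description. The last segments inside the limit were Igkv4-86 with 232 counts, Ighv1-59 with 221 and Igkv5-45 with 217, and the first outside it were Ighv3-8 with 199, Ighv1-85 with 193 and Ighv1-84 with 192. The members held 93.3% of all V segment counts, with 84.9% in Ighv, 96.3% in Igkv and 100% in Iglv.

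Wild-type female C57BL/6 mice received 1 intranasal instillation of graphene oxide sheets, 50 µg per mouse in 5% dextrose in water, and pieces of every lung lobe were taken for poly(A) RNA-seq at day 1, 7 or 28. The study set sheets of different lateral dimensions beside each other. Its labels name the 3 graphene oxide materials US, S and L, without spelling the letters out, and D is the control that received 5% dextrose alone. Each material and day has 3 libraries, making 12 groups, and the mice were 9 weeks old at day 1, 10 weeks at day 7 and 13 weeks at day 28. Day and age therefore cannot be told apart, and nothing in the labels ties each library to a separate animal, so every p-value reflects variation among libraries, which may be technical.

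Total counts ran between 16154696 and 23808264, apart from S day 7 replicate 2 with 80566751. That library was treated like the others because every member kept at least 200 counts without it. The alveolar and airway genes Sftpc and Scgb1a1 averaged 16850 ± 826 and 32950 ± 7315 CPM (counts scaled to a fixed library size) in D lungs at day 28 (SD, n = 3), so defining genes of lung epithelium were abundant. US day 1 replicate 1 stood apart at the low end, with 55.4 CPM of summed V segment counts, 102.2 CPM over 10 B cell genes and 20.1 CPM over 6 T cell genes, against medians of 131.1, 332 and 60.8 CPM over all 36 libraries in the same order.

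As background, each developing B cell joins a single V segment to downstream segments in its heavy chain locus and another in a light chain locus, and its descendants keep that pair. A mixed B cell population therefore spreads its immunoglobulin mRNA over many V segments, whereas a clone that divides or matures into antibody-secreting plasma cells adds mRNA of its own heavy and light segments. Plasma cells hold far more immunoglobulin mRNA per cell than resting B cells, and in whole-lung RNA more cells and more RNA per cell cannot be told apart.

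All members lie at the spans given in GENCODE M21 on GRCm38 and are annotated there as IG_V_gene. None overlaps an exon of another annotated gene. The Ighv members lie on the minus strand of chr12:113588267-115953005, the Igkv members on chr6:67609713-70699067 with 25 on the plus and 42 on the minus strand, and the Iglv members on the minus strand of chr16:19085017-19260859. Their transcripts are 338 to 425 bases long. V segments resemble each other, which limits how surely a read is assigned, so the letters of the 4 pairs that the results turn on are given first. Each line is the last 300 bases of the spliced GENCODE M21 transcript, 5′ to 3′ on the coding strand, and capitals mark bases that differ from its partner at the same place. Ighv9-4 (chr12:114299961-114300389) was the most dominant heavy segment of any library, and Ighv9-3 (chr12:114140692-114141122) is the other member of its family. The pair differed at 24 of the 300 positions.
Ighv9-4: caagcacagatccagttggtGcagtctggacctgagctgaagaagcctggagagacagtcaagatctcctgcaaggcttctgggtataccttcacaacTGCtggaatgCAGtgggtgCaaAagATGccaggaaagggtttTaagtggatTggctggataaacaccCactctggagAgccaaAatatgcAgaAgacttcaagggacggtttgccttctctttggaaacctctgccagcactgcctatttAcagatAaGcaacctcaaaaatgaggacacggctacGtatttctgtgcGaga
Ighv9-3: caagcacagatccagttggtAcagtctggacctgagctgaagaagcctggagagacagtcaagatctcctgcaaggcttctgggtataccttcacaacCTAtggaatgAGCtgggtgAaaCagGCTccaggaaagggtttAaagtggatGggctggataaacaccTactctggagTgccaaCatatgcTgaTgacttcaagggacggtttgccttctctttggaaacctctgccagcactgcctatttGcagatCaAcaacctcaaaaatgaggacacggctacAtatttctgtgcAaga
Igkv10-94 (chr6:68704508-68704978, minus strand) peaked in the same library as Ighv9-4, and its relative Igkv10-96 (chr6:68631963-68632442, minus strand) had the largest kappa total. They differed at 16 positions.
Igkv10-94: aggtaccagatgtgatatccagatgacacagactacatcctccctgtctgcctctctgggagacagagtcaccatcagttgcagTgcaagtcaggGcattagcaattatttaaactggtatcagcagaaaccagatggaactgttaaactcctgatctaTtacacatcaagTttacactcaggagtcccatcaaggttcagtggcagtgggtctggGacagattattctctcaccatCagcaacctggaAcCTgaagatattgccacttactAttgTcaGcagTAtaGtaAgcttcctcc
Igkv10-96: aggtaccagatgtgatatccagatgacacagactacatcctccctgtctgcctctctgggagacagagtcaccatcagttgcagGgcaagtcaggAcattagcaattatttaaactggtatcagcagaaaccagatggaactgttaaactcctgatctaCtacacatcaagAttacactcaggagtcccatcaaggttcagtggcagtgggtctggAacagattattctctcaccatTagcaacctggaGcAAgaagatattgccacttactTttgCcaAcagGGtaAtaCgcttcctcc
The next largest kappa totals were Igkv1-117's (chr6:68121046-68121827, plus strand) and Igkv1-110's (chr6:68270485-68271267, plus strand), which differed at 10 positions.
Igkv1-117's sequence: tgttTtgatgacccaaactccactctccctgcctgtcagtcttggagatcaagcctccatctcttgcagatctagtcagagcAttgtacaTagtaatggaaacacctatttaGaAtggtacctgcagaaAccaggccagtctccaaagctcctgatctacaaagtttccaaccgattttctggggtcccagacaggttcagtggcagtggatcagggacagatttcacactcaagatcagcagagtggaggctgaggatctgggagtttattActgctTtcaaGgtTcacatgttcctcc
Igkv1-110: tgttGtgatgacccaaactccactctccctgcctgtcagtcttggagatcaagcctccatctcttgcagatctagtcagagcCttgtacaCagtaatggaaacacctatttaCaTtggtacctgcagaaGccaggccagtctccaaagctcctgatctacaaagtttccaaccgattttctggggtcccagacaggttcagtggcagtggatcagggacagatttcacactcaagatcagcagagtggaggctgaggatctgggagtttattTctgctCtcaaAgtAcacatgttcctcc
Iglv1 (chr16:19085017-19085500) led its locus in every library, and Iglv2 (chr16:19260401-19260859) differed from it at 8 positions.
Iglv1: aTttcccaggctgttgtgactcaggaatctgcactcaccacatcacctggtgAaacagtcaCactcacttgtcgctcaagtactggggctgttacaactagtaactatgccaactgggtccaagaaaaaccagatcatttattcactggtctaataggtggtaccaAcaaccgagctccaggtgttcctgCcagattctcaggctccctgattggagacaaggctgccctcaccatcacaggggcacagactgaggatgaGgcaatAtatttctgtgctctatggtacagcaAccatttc
Iglv2: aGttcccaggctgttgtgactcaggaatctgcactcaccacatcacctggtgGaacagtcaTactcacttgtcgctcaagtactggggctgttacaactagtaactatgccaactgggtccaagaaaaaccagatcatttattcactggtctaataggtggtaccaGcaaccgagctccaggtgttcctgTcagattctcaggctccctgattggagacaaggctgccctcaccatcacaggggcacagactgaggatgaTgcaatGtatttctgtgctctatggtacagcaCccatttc
Over all members the median share of 50-base windows found in no other V gene was 75.4%. It was under 50% in 18 members, and 34 members were at least 95% identical to another V gene. Counts of those members are uncertain where reads could have been split between copies. Igkv10-94, for example, was 97.1% identical to Igkv10-95, and Ighv14-4 was 97.4% identical to Ighv14-1.

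A few segments led each locus in most lungs. Iglv1, the main lambda segment of mice, was the top Iglv segment in 36 of 36 libraries, with a median of 63.0% of Iglv counts and a range of 55.4% to 79.4%. Ighv1-26 was the top Ighv segment in 27 of 36 libraries, with a median share of 9.56% and a range of 5.84% to 13.4%. Igkv1-117's count was top in 16 libraries, that of Igkv10-96 in 10 and that of Igkv1-110 in 5, with median shares of 6.48%, 6.33% and 5.58% of Igkv counts. The places of Igkv10-96 and of Igkv1-117's count change when TPM, which corrects for transcript length, takes the place of counts, since Igkv10-96 was then top in 16 libraries and the other in 11. The large family Ighv1, with 27 members, supplied a median of 60.1% of Ighv counts. In the kappa locus the Igkv1, Igkv4 and Igkv6 families supplied medians of 17.9%, 14.5% and 13.5%. Lambda segments made up 7.24% to 13.2% of light chain counts, and heavy segments 17.6% to 30.4% of all V counts. Each member had a count in at least 32 of the 36 libraries.

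The summed level of V transcript was highest in L lungs at day 28, as the plot of summed counts by group shows. It reached 342, 179.7 and 274 CPM in the 3 L libraries and 176, 126.7 and 114.4 CPM in the 3 D libraries, a ratio of the means of 1.91. S lungs held 183, 200.4 and 222 CPM at day 28 and US lungs 159.6, 135.4 and 120.4 CPM. All 3 L libraries and all 3 S libraries lay above the highest D library, the lowest L library narrowly, while US and D overlapped. At day 7 the group means were 155 ± 4.89 in US, 136.5 ± 20.03 in S, 129.5 ± 38.1 in L and 109.3 ± 6.41 CPM in D lungs (SD, n = 3 each). At day 1 they were 99.6 ± 38.5, 93.3 ± 32.4, 127.7 ± 9.67 and 110.4 ± 6.54 CPM in the same order of groups. These sums carry no p-value, because the members were chosen with results of these data known.

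**Figure D1:**
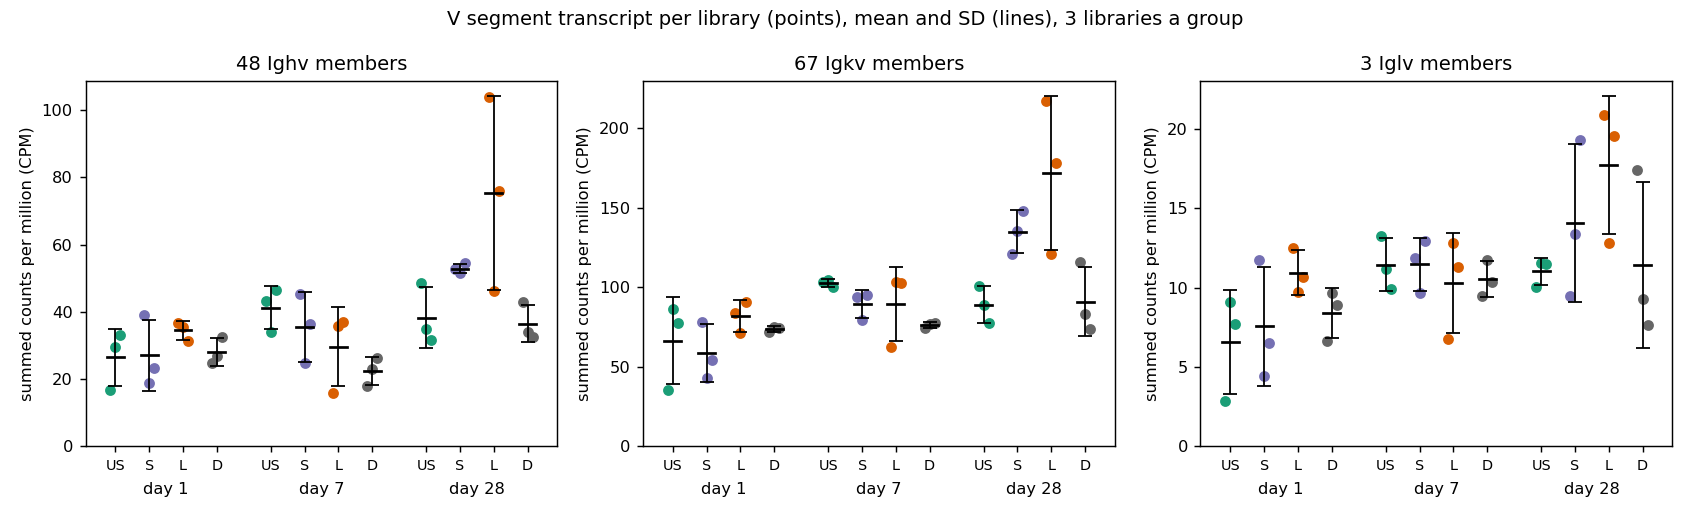
Summed CPM of the Ighv, Igkv and Iglv members in each of 36 libraries (points), with group means and SD (black lines, 3 libraries a group), for US, S, L and D lungs at each day. The highest point is an L day 28 library in both large loci, at 103.8 CPM for Ighv and 217 CPM for Igkv.

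In L lungs at day 28, 7 V segments rose against D and none fell. They were Ighv1-81, Ighv9-4, Ighv6-6 and Ighv1-12 of the heavy locus and Igkv10-94, Igkv4-72 and Igkv6-15 of the kappa locus. That is 5.93% of the members, against 2.15% of the 16903 genes tested (1.25% counting higher genes alone). Each was tested with edgeR's quasi-likelihood test, with Benjamini-Hochberg adjustment over all genes tested. Of the members, 88.1% had a positive log2 fold change, with a median of 0.80 against 0.00 over all genes, and 42 had an unadjusted p under 0.05, where 16.7% of all genes did.

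The called segments divide by how they were spread over the 3 L libraries. Ighv1-81 (chr12:115920279-115920712, minus strand) had 2.50, 0.746 and 1.39 CPM in L lungs against 0.274, 0.285 and 0.395 CPM in D lungs. Every L library was above every D library, and the log2 fold change was 2.24 ± 0.41 (SE, adjusted p = 0.00229). Igkv4-72 had 3.54, 6.54 and 5.26 CPM in L lungs against 0.985, 0.969 and 1.33 CPM in D lungs, again with no overlap (log2 fold change 2.18 ± 0.59, adjusted p = 0.0471). Its highest library of all was S day 28 replicate 1, with 11.3 CPM. The L and D libraries also did not overlap for Ighv6-6, but only narrowly, by 0.785 against 0.766 CPM. This segment had 3.91, 6.94 and 0.785 CPM in L lungs against 0.766, 0.456 and 0.692 CPM in D lungs (2.56 ± 0.64, adjusted p = 0.0304). Over all members 20 had every L library above every D library, 16.9% of them, where 16.5% of all genes did, so the count of such members was near the background.

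In the other 4 called segments the L and D libraries overlapped, with 1 or 2 L libraries far above the rest. Ighv9-4 had 0.834, 0.115 and 13.0 CPM in L lungs against 0.547, 0.0570 and 0.198 CPM in D lungs, so that replicate 3 alone was high (4.05 ± 0.99, adjusted p = 0.0247). Igkv10-94 was also highest in L replicate 3, with 6.15, 1.66 and 18.9 CPM in L lungs against 3.01, 0.912 and 2.08 CPM in D lungs (2.12 ± 0.51, adjusted p = 0.0235). Ighv1-12 was high in L replicates 1 and 2, with 8.08, 2.81 and 1.03 CPM in L lungs against 0.164, 1.08 and 0.148 CPM in D lungs (3.11 ± 0.84, adjusted p = 0.0462). Igkv6-15 was highest in L replicate 2, with 7.66, 15.4 and 3.32 CPM in L lungs against 3.67, 2.05 and 2.67 CPM in D lungs (1.62 ± 0.45, adjusted p = 0.0494). Their calls were lost in 4, 3, 3 and 5 of the 6 fits that leave out 1 library, with adjusted p = 0.714 for Ighv9-4 and 0.393 for Igkv10-94 without L replicate 3, 0.267 for Ighv1-12 without L replicate 1 and 0.365 for Igkv6-15 without L replicate 2. The call of Ighv1-81 was lost only without L replicate 1 (adjusted p = 0.0535). That of Ighv6-6 was lost in 5 of the 6 fits (0.192 without L replicate 2) and that of Igkv4-72 in 6 of 6 (0.169 without D replicate 2). The count of called members was 15 without L replicate 2, 4 without L replicate 3 and 2 without L replicate 1. It was 2 without D replicate 1 or D replicate 2, and 1 without D replicate 3. The shares of all genes called in these fits are not given, so the counts are not set against a background.

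**Figure D2:**
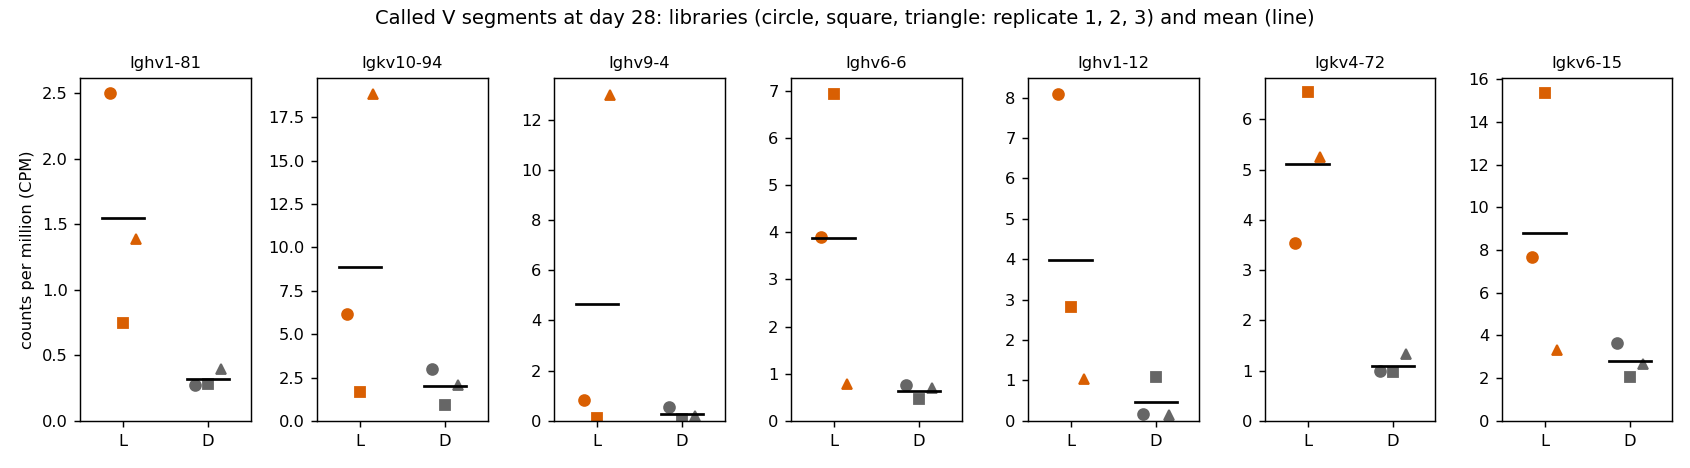
CPM of the 7 V segments called in L against D lungs at day 28, per library (circle, square and triangle for replicates 1, 2 and 3) with the mean as a line. Ighv9-4 reaches 13.0 CPM and Igkv10-94 18.9 CPM in L replicate 3, and Ighv1-81 lies above all D libraries in each of the 3 L libraries.

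The share of the locus tells the composition apart from the amount. When each member was tested against the total of its own locus in the library, no member was called by edgeR in L against D at day 28. At an unadjusted p under 0.05 there were 16 members. The share of all genes at that cutoff in this fit is not given, so the 16 are not set against a background. In the same fit 2.05% of all genes were called, but genes other than members were tested there for their level, not for a share. The log2 change in share of Ighv9-4 was 3.05 ± 0.94 (adjusted p = 0.0876) and that of Ighv1-81 was 1.16 ± 0.37 (adjusted p = 0.103). DESeq2 was not run on shares, and on levels it called 8 members. The share of all genes called by DESeq2 is not given, here or below. Its counts of members are therefore not set against a background, and the shares beside them are those of edgeR.

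Some constant region genes, which lie in the same transcripts as rearranged V segments, were also higher in L lungs at day 28. Of 11 measured constant region genes 3 rose. Igha, which codes for the IgA heavy chain, had 178 ± 96.3 CPM in L and 51.1 ± 8.01 CPM in D lungs (SD, n = 3 each; edgeR adjusted p = 0.0257), Igkc, the kappa constant region, 275 and 130.4 CPM (adjusted p = 0.0449), and Ighg2c, an IgG heavy chain, 3.01 ± 4.14 and 0.310 ± 0.217 CPM (adjusted p = 0.0466). Ighg2c had 0.730, 0.516 and 7.79 CPM in the 3 L libraries against 0.274, 0.114 and 0.543 CPM in the 3 D libraries, so L replicate 3 alone was high and the groups overlapped. Igha held 33.9%, 14.9% and 29.8% of heavy constant counts in the 3 L libraries and 11.4%, 18.7% and 15.99% in the 3 D libraries. Of 9 measured plasma cell genes 1 rose, Jchain, the joining chain of secreted IgA and IgM (59.8 ± 29.5 in L and 19.5 ± 3.65 CPM in D lungs, adjusted p = 0.0244). The summed plasma cell list, of which Xbp1 and Sdc1 are also made by lung epithelium, ran between 632 and 671 CPM in L and between 596 and 634 CPM in D lungs. None of 10 B cell genes was called (median log2 fold change 0.64), and their sum ran between 401 and 496 CPM in L and between 252 and 347 CPM in D lungs, with no overlap. None of 6 T cell genes, 5 lung genes or 4 measured germinal centre and follicle genes was called. The part of B cell content in the V segment calls was not tested.

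In the other 2 materials at day 28 edgeR called 0 members in US lungs, against 0.0237% of all genes, and 0 in S lungs, against 0.237%. At an unadjusted p under 0.05 there were 10 members in US lungs (6.02% of all genes) and 17 in S lungs (9.87% of all genes), and DESeq2 called none in US and 2 in S lungs. The median log2 fold change of the members was 0.00 in US and 0.56 in S lungs. For the mean of US, S and L against D at day 28 it was 0.48, and 0 members were called by edgeR and by DESeq2, against 0.893% of all genes, with 20 at an unadjusted p under 0.05 (12.9% of all genes). These comparisons share the D libraries.

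At day 7, 2 heavy segments rose in US lungs. Ighv10-3 had 0.412, 0.229 and 4.67 CPM in US lungs against 0.0579, 0.215 and 0.101 CPM in D lungs (log2 fold change 3.76 ± 0.92, edgeR adjusted p = 0.0370). Ighv1-80 had 1.05, 0.572 and 3.50 CPM in US lungs against 0.116, 0.323 and 0.405 CPM in D lungs (2.56 ± 0.64, adjusted p = 0.0388). In both the groups did not overlap, for Ighv10-3 only narrowly, by 0.229 against 0.215 CPM. US replicate 3 was highest in both, and without it the adjusted p was 0.541 and 0.377. They are 1.69% of the members, where 2.09% of all genes were called, so the share is near the background, and 10 members had an unadjusted p under 0.05, where 25.7% of all genes did. In S and L lungs edgeR called 0 members at day 7, against 0.45% and 0.154% of all genes. There 10 and 4 members had an unadjusted p under 0.05 (9.33% and 4.87% of all genes), and DESeq2 called 1 member in each. For the mean of US, S and L against D at day 7, Igkv1-122's level alone was called, 0.847% of members against 0.337% of all genes, and it was lower. At an unadjusted p under 0.05 there were 10 members (13.3% of all genes). Igkv1-122's level was 0.101 to 0.458 CPM in the 9 graphene oxide libraries and 0.232, 5.54 and 0.304 CPM in the 3 D libraries (-2.86 ± 0.57, adjusted p = 0.0193). The call rests on D replicate 2, and without that library the log2 fold change was 0.05 with an adjusted p of 0.985.

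At day 1 edgeR called no member in US, S or L lungs against D, where 0.0887%, 0.0473% and 0.0237% of all genes were called. The members with an unadjusted p under 0.05 numbered 1, 3 and 4, where 16.1%, 21% and 4.94% of all genes passed, and DESeq2 called none. The mean of US, S and L against D at day 1 gave 0 called members by edgeR and by DESeq2 (0.0414% of all genes) and 2 at an unadjusted p under 0.05 (15.8% of all genes). The change between day 1 and day 28 in graphene oxide lungs, less that in D lungs, was called for 0 members by edgeR, against 0.373% of all genes, with 14 members at an unadjusted p under 0.05 (19.5% of all genes) and 2 called by DESeq2. Igkv4-72 had the smallest p in that test (log2 difference 2.56 ± 0.72, edgeR adjusted p = 0.0874).

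Many V segments were higher at the latest day. Averaged over US, S, L and D, 40 members were higher at day 28 than at day 1 and none was lower, which is 33.9% of members against 8.86% of all genes called higher (19% called in either direction). They were 8 Ighv, 30 Igkv and 2 Iglv segments, and 96.6% of members had a positive log2 fold change, with a median of 0.65 against 0.00 over all genes, and 70 had an unadjusted p under 0.05, where 34.5% of all genes did. Igkv6-23 had the smallest p. Its lowest, median and highest levels were 1.196, 2.02 and 3.54 CPM over the 12 libraries of day 1, 1.27, 2.41 and 3.95 CPM at day 7 and 1.72, 5.23 and 8.82 CPM at day 28 (log2 fold change of day 28 over day 1 1.11 ± 0.23, edgeR adjusted p = 0.00175). The ranges overlapped. Iglv1 ran between 5.53 and 13.9 CPM at day 28 with a median of 7.33, and between 1.79 and 7.39 CPM at day 1 with a median of 5.33 (0.72 ± 0.16, adjusted p = 0.00286). The heavy segment Ighv5-17 rose most among the first 10 by p (1.32 ± 0.31, adjusted p = 0.00477), with a median of 1.36 CPM at day 28 and 0.626 CPM at day 1. Igkv1-117's level, among the highest of the kappa segments, also rose (0.69 ± 0.16, adjusted p = 0.00338), as did Igkv5-39, Igkv8-30 and Igkv9-124's level, with log2 fold changes of 0.88, 1.08 and 1.096.

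Between day 7 and day 1, 9 members rose and 1 fell, 8.47% of members against 55.6% of all genes. Those that rose were led by Igkv1-117's level (0.52 ± 0.16, adjusted p = 0.00578), Iglv1 (0.46 ± 0.16, adjusted p = 0.0165), Igkv3-10 (0.73 ± 0.28, adjusted p = 0.0252) and Ighv7-3 (0.99 ± 0.37, adjusted p = 0.0257). Ighv1-52 fell (-0.90 ± 0.35, adjusted p = 0.0288). The calls of Igkv3-10, Ighv7-3 and Ighv1-52 were lost in 2, 3 and 6 of the 24 fits that leave out 1 library, with adjusted p up to 0.0609 without D day 1 replicate 3, 0.0611 without L day 7 replicate 3 and 0.149 without S day 1 replicate 1. Between day 28 and day 7, 24 members rose and none fell, 20.3% of members against 16% of all genes called higher (27.6% in either direction). Here 15 were Ighv and 9 Igkv segments, led by Ighv6-3 (1.36 ± 0.31, adjusted p = 0.00360), Igkv6-23 (0.96 ± 0.23, adjusted p = 0.00442) and Ighv1-52 (1.302 ± 0.33, adjusted p = 0.00694). The count of 24 was 13 to 15 when any of 6 libraries was left out. These were replicate 1 of D day 7, L day 7, D day 28 and US day 28. The others were replicate 2 of US day 7 and of S day 7. Shares of all genes called in those fits are not given, so the drop is not set against a background.

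The counts were also taken over fewer materials, and so fewer libraries. For day 7 against day 1, US, S and D without L gave 9 higher and 1 lower (48.2% of all genes called), as many as with L. D alone gave 0 members by edgeR, where 0% of all genes were called, with 4 members at an unadjusted p under 0.05. For day 28 against day 1, US, S and D without L gave 13 higher members (8.01% of all genes called), with 94.9% of members positive and a median log2 fold change of 0.61. There D lungs alone gave none by edgeR, where 0.0769% of all genes were called. Of the members, 6 had an unadjusted p under 0.05, 69.5% were positive and the median was 0.37. For D alone the share of all genes at an unadjusted p under 0.05 is not given, and the shares called use adjusted p. From the same averages over all 4 materials, 6 of 11 constant region genes, 5 of 6 T cell genes and 1 of 10 B cell genes were higher at day 28 than at day 1, and of 9 plasma cell genes 3 were higher and 2 lower. Of the 2 haemoglobin genes measured as markers of red blood cells, Hbb-bs rose (1424 ± 313 CPM at day 28 and 839 ± 323 CPM at day 1, log2 fold change 0.75 ± 0.17, edgeR adjusted p = 0.00377) and Hba-a1 had a log2 fold change of 0.69 ± 0.27 (adjusted p = 0.0662). Between day 7 and day 1, 8 of 11 constant region genes, 4 of 10 B cell genes, 5 of 6 T cell genes and both haemoglobin genes were higher, and of 9 plasma cell genes 4 were higher and 1 lower. The summed haemoglobin level ran between 342 and 2750 CPM over the 36 libraries. Igha rose to 93.4 ± 69.3 CPM at day 28, against 29.8 ± 11.4 CPM at day 1, and Jchain to 32.8 ± 21.5 CPM at day 28, against 9.29 ± 2.74 CPM at day 1 (SD, n = 12 libraries each). Between day 28 and day 7 only Igha of the 11 constant region genes was called. The part of lymphocyte or blood content in the day differences was not tested.

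**Figure D3:**
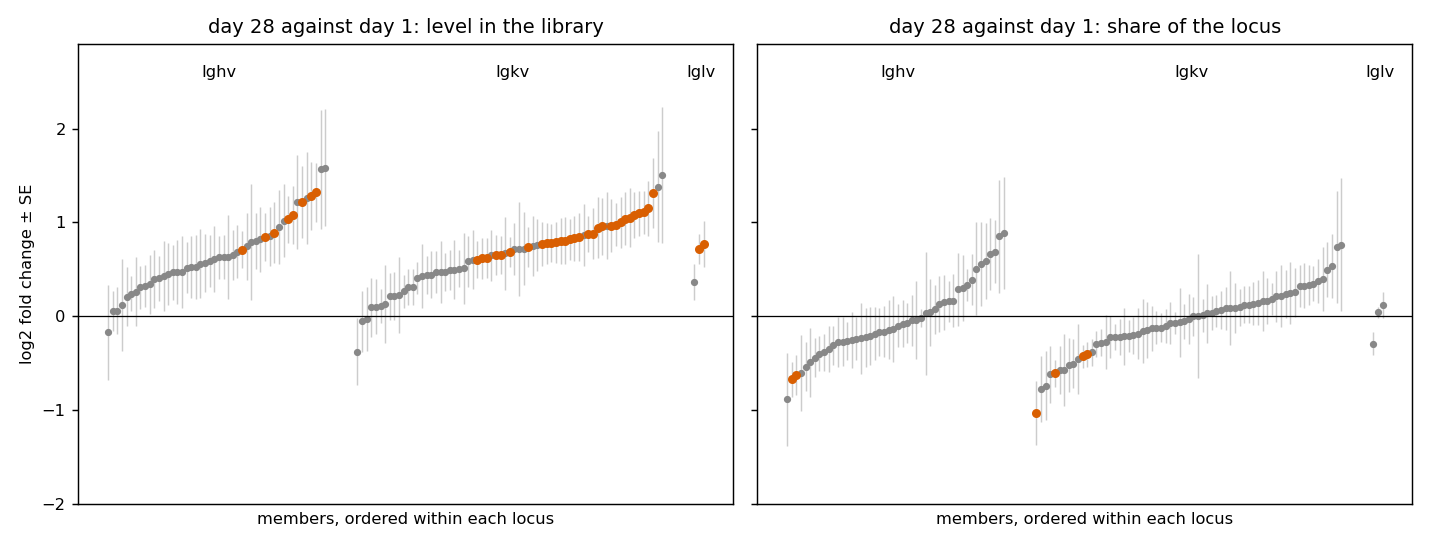
Log2 fold change of each member at day 28 over day 1 with its SE, for its level in the library (left) and its share of the locus (right), ordered within Ighv, Igkv and Iglv. Orange marks members with an adjusted p under 0.05, 40 higher on the left and 6 lower on the right.

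Against the total of their own locus, 6 members held a smaller share at day 28 than at day 1 and none a larger one. In that fit 18.7% of all genes were called, with genes other than members tested for their level. Of the 6 members, 3 belong to the family Igkv12, namely Igkv12-47 (log2 change in share -0.61 ± 0.15, edgeR adjusted p = 0.00496), Igkv12-89 (-1.03 ± 0.34, adjusted p = 0.0356) and Igkv12-46 (-0.41 ± 0.14, adjusted p = 0.0382). Igkv12-47 held 0.474% to 0.850% of Igkv counts at day 28, with a median of 0.647%, and 0.479% to 1.39% at day 1, with a median of 1.03%. The ranges overlapped, with the highest day 28 library below the day 1 median. The others were Ighv1-81 (-0.67 ± 0.19, adjusted p = 0.0131), Igkv17-121's share (-0.43 ± 0.12, adjusted p = 0.0149) and Ighv8-8 (-0.62 ± 0.21, adjusted p = 0.0397). Ighv1-81 and Ighv8-8 were also lower in share at day 28 than at day 7, with log2 changes of -0.76 ± 0.18 and -0.69 ± 0.21 (adjusted p = 0.00460 and 0.0176). Ighv1-81 thus had a median share of 1.87% at day 1, 2.25% at day 7 and 1.28% at day 28, although its level had the smallest p of all members in L against D lungs at day 28. Igkv6-23 was the only member whose share was larger at day 28 than at day 7 (0.52 ± 0.18, adjusted p = 0.0324), among 4 members called in that fit. There 27.4% of all genes were called, again with genes other than members tested for their level.

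In single libraries a segment that was rare elsewhere took a large share of its locus. A segment was taken as peaking in a library where it held at least 5% of its locus's member counts and at least 5 times its median share over the 36 libraries. There were 17 such peaks, in 12 libraries. By day there were 2 at day 1, 7 at day 7 and 8 at day 28, each over 12 libraries. The 27 graphene oxide libraries held 14 peaks in 11 libraries and the 9 D libraries held 3, all of them in D day 7 replicate 2. L day 28 was the only group with a peak in each of its 3 libraries and held 5. All 17 were also peaks by share of TPM. The peaks were picked by their values and carry no test, and the intervals below are exact Clopper-Pearson 95% intervals that cover counting error only, since reads are not independent molecules.

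**Figure D4:**
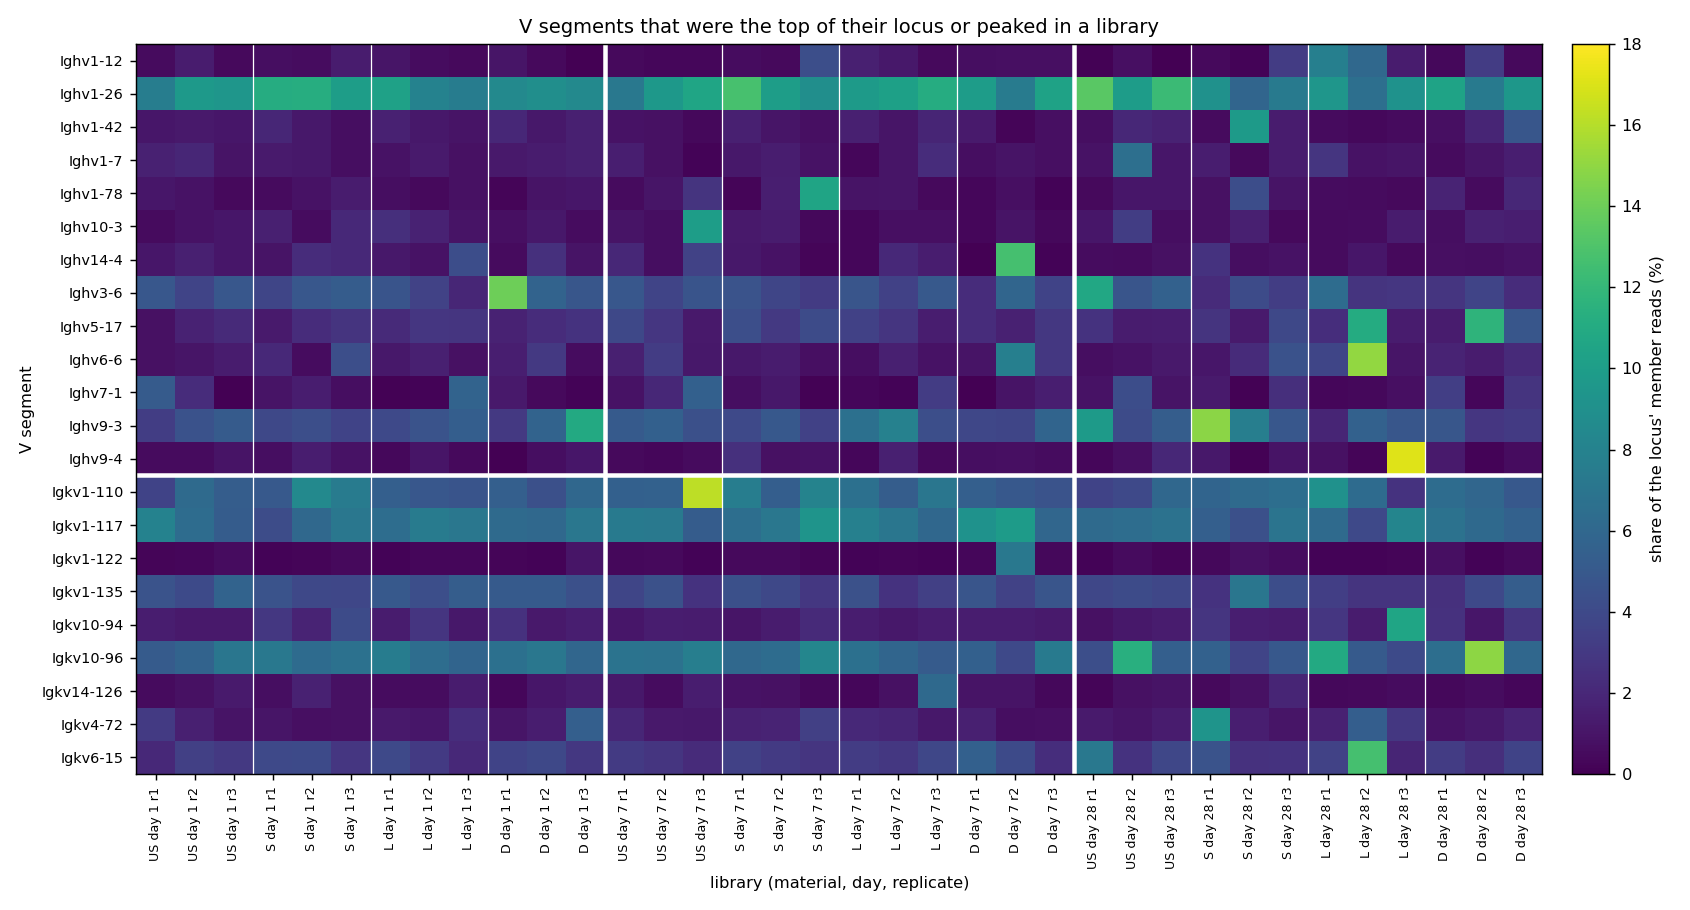
Share of member counts of the locus (%) in each of 36 libraries for the 22 Ighv and Igkv segments that were the top of their locus or peaked in a library, with US, S, L and D libraries in order within each day. Ighv1-26 is bright in nearly every column, whereas Ighv9-4 is bright in L day 28 replicate 3 alone, at 17.1%.

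The largest peak was Ighv9-4, with 215 of 1258 Ighv counts in L day 28 replicate 3, or 17.1% (15.1% to 19.3%), against a median of 0.67% over all libraries and at most 2.49% in any other. In the same library Igkv10-94 held 10.6% of Igkv counts (9.49% to 11.7%), against a median of 1.41% and at most 4.09% elsewhere. Their relatives Ighv9-3 and Igkv10-96, set beside them in the printed sequences, held 4.85% and 4.07% there. In L day 28 replicate 2 the heavy segment Ighv6-6 held 15.1% (12.7% to 17.7%) of Ighv counts and was top of its locus, while Igkv6-15 held 12.7% of Igkv counts. Ighv1-12 peaked in L day 28 replicate 1 with 7.78% (6.64% to 9.05%) and in L day 28 replicate 2 with 6.10% (4.55% to 7.99%), against a median of 0.574%.

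The other libraries had other segments. In D day 7 replicate 2, Igkv1-122's share was 7.21% of Igkv counts (5.93% to 8.68%), against at most 1.03% in any other library, beside Ighv14-4 at 12.7% and Ighv6-6 at 7.75% of Ighv counts. Ighv1-78 held 10.5% (8.49% to 12.8%) in S day 7 replicate 3, Ighv10-3 10.03% (8.20% to 12.1%) in US day 7 replicate 3 and Ighv1-42 9.83% (8.08% to 11.8%) in S day 28 replicate 2. In kappa, Igkv14-126's share was 6.15% in L day 7 replicate 3 and that of Igkv4-72 was 9.30% in S day 28 replicate 1. Ighv7-1 passed the rule in 3 libraries of different groups, at 5.73% in L day 1 replicate 3, 5.54% in US day 7 replicate 3 and 5.19% in US day 1 replicate 1.

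Segments that are common everywhere also took large shares in single lungs without meeting the rule. Igkv1-110 held 16.2% of Igkv counts in US day 7 replicate 3, and Ighv9-3 held 14.9% of Ighv counts in S day 28 replicate 1. Dextrose lungs were among them, with Igkv10-96 at 14.96% and Ighv5-17 at 11.7% in D day 28 replicate 2 and Ighv3-6 at 14.0% in D day 1 replicate 1.

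Heavy peaks were set beside the light segments of the same libraries. For each of the 5 heavy segments whose peak was largest as a ratio to its median share, the light segment whose share had the highest Pearson's r with it over the 36 libraries was highest in the library of the heavy peak. Ighv9-4 went with Igkv10-94 (r = 0.89) and Ighv14-4 with Igkv1-122's share (r = 0.87). Ighv1-78 went with Igkv3-5 (r = 0.87), which held 3.40% of Igkv counts in S day 7 replicate 3 against a median of 0.437%. Ighv6-6 went with Igkv14-111's share (r = 0.74), at 7.92% in L day 28 replicate 2 against a median of 2.28%, and Ighv1-12 with Igkv1-133's share (r = 0.59), at 3.24% in L day 28 replicate 1 against a median of 0.188%. These r values are descriptions picked as the highest of 70 light segments and rest on single libraries, so that the choice itself favours a light segment high in the library of the heavy peak. Without the library of the peak they were 0.06, -0.14, 0.37, 0.13 and 0.17 in the order just given. Bulk counts do not show which heavy and light segments were joined in 1 cell.

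The evenness of use was summed up by the inverse Simpson index, the number of equally used segments that would give the same concentration, corrected for depth. Over all libraries it ran between 17.0 and 34.4 for Ighv, and between 20.2 and 39.3 for Igkv. For Ighv the 3 L day 28 libraries had 26.8, 18.04 and 18.5, and the 3 D day 28 libraries 28.9, 24.1 and 28.3, so the groups overlapped. US day 28 averaged 24.3 ± 6.35 and S day 28 27.2 ± 6.51 (SD, n = 3 each). The lowest Ighv value of all was in US day 28 replicate 1, whose 5 leading Ighv segments held 48.5% of counts, Ighv1-26, Ighv3-6 and Ighv9-3 among them. For Igkv the L day 28 libraries had 25.8, 24.4 and 27.7, and the D day 28 libraries 35.3, 23.4 and 37.2. All 3 L libraries lay below D replicates 1 and 3 and above D replicate 2, where Igkv10-96 was dominant. Without the top segment of each library the Ighv means at day 28 were 26.1 in L and 30.9 in D lungs, against 21.1 ± 4.95 and 27.1 ± 2.61 with it. The day medians were 31.0, 27.7 and 26.3 for Ighv and 35.5, 34.5 and 30.8 for Igkv at days 1, 7 and 28. No p-value is given for an index over the members.

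**Figure D5:**
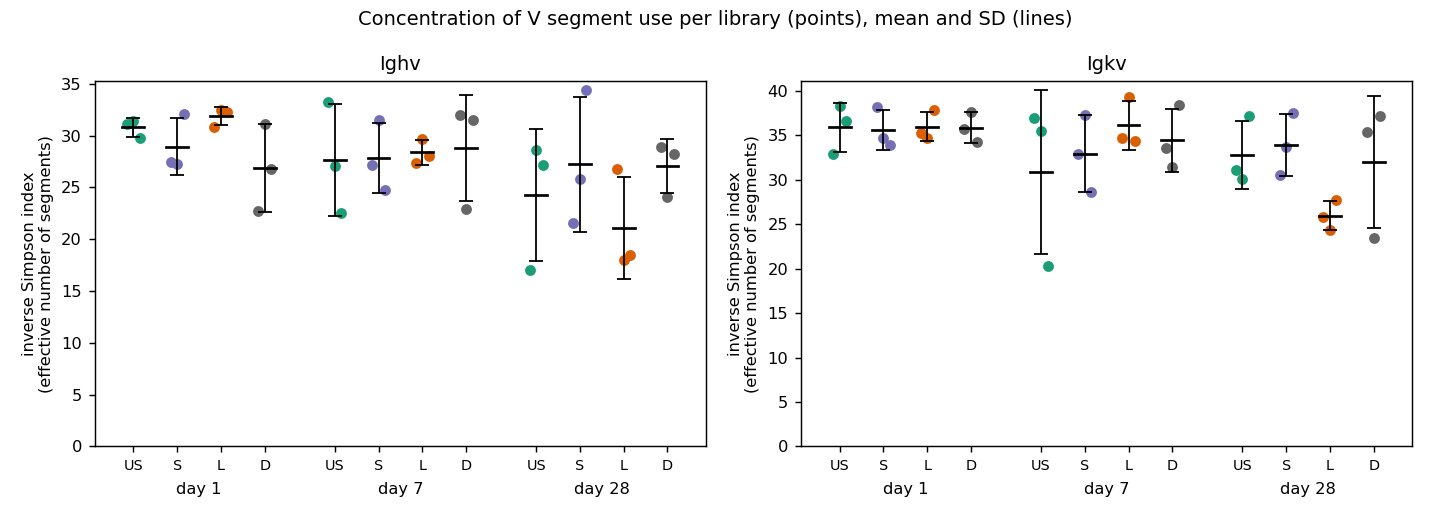
Inverse Simpson index of Ighv and Igkv use per library (points) with group mean and SD (black lines, 3 libraries a group), for US, S, L and D lungs at each day. For Igkv the L day 28 libraries lie between 24.4 and 27.7, and D day 28 spans 23.4 to 37.2.

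Taken over all groups together, libraries of the same group and libraries of other groups of the same day had near-equal similarity in segment use. The Morisita-Horn overlap, which is 1 for identical proportions, had a median of 0.877 for pairs within a group and 0.879 for pairs of different groups of the same day for Ighv. For Igkv these were 0.916 and 0.921. These medians pool all groups, and L day 28 libraries were less alike. Their mean overlap with their own group was 0.634, 0.552 and 0.494 for Ighv and 0.715, 0.642 and 0.65 for Igkv. The lowest such mean in any other group was 0.713 for Ighv and 0.777 for Igkv. By day the median overlap over all pairs was 0.919, 0.908 and 0.74 for Ighv and 0.969, 0.932 and 0.816 for Igkv at days 1, 7 and 28. The least alike pair for Ighv was L day 28 replicates 2 and 3, at 0.411, where Ighv6-6 led in replicate 2 and Ighv9-4 in replicate 3. The 24 Ighv members with the lowest coordinates held 37.6% to 59.0% of Ighv counts at day 28, with a median of 46.0%, and 37.4% to 44.1% at day 1, with a median of 41.9%. The overlap within a group and the position shares are descriptions over libraries of unequal depth, with 311 to 1993 Ighv and 776 to 6384 Igkv counts each.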

How the data were processed

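Poly(A) RNA of mouse lung was sequenced in 36 libraries, 3 in each of 12 groups. The submitters' processing notes name bcl2fastq 2.19.1.403, STAR 2.5.1b, featureCounts 1.5.1 and StringTie 1.3.3, and the builds GRCh37 and GRCm38, with no roles. The authors deposited raw counts per gene, not normalized, and TPM values per gene, normalized by the authors for transcript length and library size. No source used here gives the annotation release or the handling of strand and multi-mapped reads.

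The V segments, the gene lists and the rules for peaks and named genes were chosen with earlier results of these data known. Counts were fitted with edgeR 4.0.16 (R 4.3.3; filterByExpr, TMM, 12 group means, quasi-likelihood F test), with Benjamini-Hochberg adjustment over 16903 genes and a threshold of 0.05. All members passed the filter. Named segments were those with the largest totals, those that led a locus in a library, up to 5 called in each direction per comparison by smallest p, the 10 peaks largest as a ratio to the median share, the light partner of each of the 5 heavy segments largest by that ratio, and those next to the limit of 200 counts. The other called, share-called and peaking segments were added after their values were seen. CPM scales a count to the total count of its library, without the TMM factor, which entered only the fits. A share is the percentage of the member counts of a locus, and shares were tested with the locus total as library size. In those fits only members were scaled to their locus, and all other genes kept the usual library size. Alternatives were another scaling (RLE), no filter, a replicate block, DESeq2 1.42.0, limma 3.58.1 on log2(TPM + 1), fits of only the groups compared, and each library left out. Sequences and spans were read from GENCODE M21 transcripts with Python 3.11.15. The edgeR fit of L against D at day 28 was tested on simulated counts. There each changed gene changed equally in all L day 28 libraries, so segments high in 1 library were not simulated. Depth ran between 1204 and 9153 member counts a library, which sets the width of the intervals given with shares.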

Additional observations from a re-analysis of the deposited data

Results flagged for a closer look

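In 3 segments every library of a material lay on one side of every D library at 1 day and on the other side at another day. The difference between days was not tested for the single material, and no cause was tested. For the mean of US, S and L against D, the test of day 28 minus day 1 gave log2 differences of 1.602 ± 0.50 for Ighv1-81, 0.98 ± 0.50 for Igkv3-12 and 1.29 ± 0.59 for Igkv9-124's level, none of them called by edgeR (adjusted p = 0.109, 0.279 and 0.233). Ighv1-81 had 0.408, 0.325 and 0.372 CPM in S lungs against 0.619, 0.430 and 1.07 CPM in D lungs at day 1, a difference of the means of -0.338 CPM, whereas S minus D was 0.28 CPM at day 7 and 0.291 CPM at day 28. Igkv3-12 had 0.468, 0.507 and 0.461 CPM in L lungs against 0.681, 0.921 and 0.561 CPM in D lungs at day 1, a difference of -0.242 CPM. At day 28 it had 1.62, 1.43 and 1.75 CPM in L lungs against 0.711, 0.342 and 0.889 CPM in D lungs, a difference of 0.953 CPM. Igkv9-124's level was 0.255, 0.271 and 0.319 CPM in S lungs against 0.743, 0.491 and 0.357 CPM in D lungs at day 1, a difference of -0.249 CPM. At day 28 it was 0.768, 1.31 and 3.35 CPM in S lungs against 0.492, 0.513 and 0.692 CPM in D lungs, a difference of 1.24 CPM. With 3 libraries a group, such a pattern was looked for in every member and each of the 3 materials. The share of all genes with it is not given here, so the 3 segments are not set against a background.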

How the results depend on the processing

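The 7 V segments called in L against D lungs at day 28 became 4 with a replicate block, 0 with the locus total as library size, 2 with limma and 3 in a fit of only the groups compared, and 1 to 15 with a library left out. In US lungs at day 7, where 2 were called and both higher, the count was 1 with the block (Ighv1-80), 5 with DESeq2, 1 with the locus total, which was a lower one and neither of the 2, 0 with limma, 0 in a fit of only the groups compared and 0 to 6 with a library left out. DESeq2 called 1 segment in S and 1 in L lungs at day 7, 2 in S lungs at day 28 and 2 in the test of day 28 minus day 1, where edgeR called 0. With a library left out, 0 to 1 were called in S lungs at day 1, day 7 and day 28, in L lungs at day 7, in the mean of US, S and L at day 28 and in the test of day 28 minus day 1. The 1 segment called for the mean at day 7 became 0 with limma, 0 in a fit of only the groups compared and 0 to 1 with a library left out, and Igkv1-122's log2 change ran between -3.39 and 0.052. Day 7 against day 1 gave 10, and 4 by locus total (1 higher and 3 lower), 5 by limma and 16 in a fit of only the groups compared. In D lungs alone it gave 0, where 0% of all genes were called. Day 28 against day 1 gave 40, and 6 by locus total (all lower), 13 without L (8.01% of all genes) and 0 in D lungs alone (0.0769% of all genes). Day 28 against day 7 gave 24, and 4 by locus total (1 higher and 3 lower) and 13 to 30 with a library left out. Without L it gave 8, where 22.1% of all genes were called, and in D lungs alone 2, where 15.6% were. The averages without L and in D lungs alone were chosen after seeing the data. The 17 peaks became 2 among members with at least 1000 counts. The mean inverse Simpson index of Ighv at day 28 was 2.53 in L and 2.35 in D lungs among those members, of which 3 are Ighv, and 26.1 in L and 30.9 in D lungs without the top segment. Same-numbered libraries did not deviate together (correlations between -0.477 and 0.371), so the block joins libraries that share only a number. Other scaling and no filter changed no count by over 1.5 times. Counts given here without a share of all genes do not tell a change among V segments from a change over all genes. Depth limits the rarer segments, shares were not refitted with libraries left out, and the causes of these changes were not tested.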

Other observations

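The kappa V counts per 100 counts of the kappa constant region Igkc were 65.9, 59.7 and 61.1 in L lungs at day 28, against 72.6, 63.9 and 73.5 in D lungs. The lambda share of light chain V counts had day medians of 10.6%, 11.1% and 9.72% at days 1, 7 and 28. The heavy share of all V counts was lowest in D lungs at day 7, with a mean of 20.4% ± 2.68 (SD, n = 3). Family Ighv9, with Ighv9-3 and Ighv9-4 as its members, had a median of 5.76% of Ighv counts and reached 21.9% in L day 28 replicate 3.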
